A study of Homo sapiens with 3 samples.

Results

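The IGF axis was followed through RNA-seq libraries of CAL27 cells, a human oral squamous cell carcinoma (OSCC) line, and of 2 lines derived from it. Its 10 members were taken by gene symbol from the 19220 genes of the count table: the binding proteins IGFBP2, IGFBP3, IGFBP4, IGFBP5, IGFBP6 and IGFBP7, the ligand IGF2, the receptors IGF1R and IGF2R, and the substrate IRS1. The CAL27 cells carried the label WT and grew without drug, the CAL27/5FU cells were 5-fluorouracil resistant and kept in 10 μM 5FU, and the CAL27/OXA cells were oxaliplatin resistant and kept in 10 μM OXA. All 3 lines share the same high-glucose medium with serum, and each is represented by 1 labelled library. The CAL27/5FU line was selected by raising the drug concentration over time. Because the resistant cells grew in drug and the parental cells did not, resistance and the presence of the drug cannot be told apart. IGFBP3 was chosen because it is among the most counted genes of CAL27, so its level there is a description, and with 1 library per line no difference below has a replicate check or a p-value.

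Insulin-like growth factors (IGFs) are secreted ligands that bind the receptor tyrosine kinase encoded by IGF1R. The active receptor phosphorylates docking proteins such as IRS1, which recruit PI3K and start AKT signalling, while other adaptors lead to RAS and MAPK. The IGF binding proteins (IGFBPs) hold IGFs outside the cell and limit or extend their access to the receptor, proteases such as PAPPA free the ligand again, and IGF2R, which carries no kinase, takes IGF2 up for degradation. In squamous epithelium and its tumours IGFBP3 is a well-known secreted product that also has actions that do not depend on IGF.

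Of the 10 members, 7 averaged 10 counts or more across the libraries and were compared, while IGFBP2, IGFBP5 and IGF2 did not. The largest differences in the axis were in the binding proteins. IGFBP3 was 5.23-fold lower in CAL27/5FU and 14.6-fold lower in CAL27/OXA than in CAL27, IGFBP4 was 10.0-fold and 3.48-fold higher, and IRS1 was 3.05-fold higher in CAL27/5FU. IGFBP7, IGFBP6, IGF1R and IGF2R stayed within 2-fold. These folds are ratios of counts scaled to library size (CPM) with TMM factors, which correct library sizes for composition. In bulk libraries, fewer cells that express a gene and less RNA per cell cannot be told apart.

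The promoters of the 3 members that passed 2-fold against CAL27 are shown so that the sequence before each RefSeq start can be seen beside its values. Each is the 250 bases before the RefSeq start on the strand of the gene (GRCh38.p14), written 5′ to 3′: IGFBP3 at chr7:45921273-45921522 on the minus strand, IGFBP4 at chr17:40443200-40443449 on the plus strand and IRS1 at chr2:226799821-226800070 on the minus strand. The GENCODE 29 gene of IGFBP3 begins 602 bases upstream of the RefSeq start, so this window lies inside it, while the RefSeq starts of IGFBP4 and IRS1 are 11 and 61 bases upstream of the GENCODE genes. Capitals mark matches to a GC box (GGGCGG) or a TATA box (TATAAA) on either strand.
IGFBP3: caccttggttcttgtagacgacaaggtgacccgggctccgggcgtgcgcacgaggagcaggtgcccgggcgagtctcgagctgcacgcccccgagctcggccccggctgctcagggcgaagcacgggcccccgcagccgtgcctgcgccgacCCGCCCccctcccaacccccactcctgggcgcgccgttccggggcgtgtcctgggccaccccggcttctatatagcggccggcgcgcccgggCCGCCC
IGFBP4: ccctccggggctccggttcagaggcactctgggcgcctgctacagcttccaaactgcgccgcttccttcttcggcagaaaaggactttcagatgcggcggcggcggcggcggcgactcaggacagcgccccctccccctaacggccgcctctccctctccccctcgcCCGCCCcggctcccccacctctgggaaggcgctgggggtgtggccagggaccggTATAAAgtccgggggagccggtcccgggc
IRS1: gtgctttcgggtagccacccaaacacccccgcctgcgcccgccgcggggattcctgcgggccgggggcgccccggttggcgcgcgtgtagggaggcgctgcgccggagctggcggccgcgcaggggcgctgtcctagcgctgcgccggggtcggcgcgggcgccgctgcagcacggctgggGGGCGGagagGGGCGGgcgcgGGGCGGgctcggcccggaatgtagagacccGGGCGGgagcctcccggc
The IGFBP3 window held 2 GC boxes, beginning 98 and 6 bases before the start, and that of IGFBP4 held 1, beginning at 83. IRS1 had 4, beginning at 69, 59, 48 and 18. The TATAAA letters were found only in the IGFBP4 window, beginning 29 bases before the start. Only these exact letters were searched, so similar ones, such as tatata in the IGFBP3 window, are not marked. Of 27305 promoters of this length, 42.3% held a GC box and 11.1% the TATAAA letters. An E-box (CACGTG) and an AP-1 site (TGANTCA) were also searched, which 6.49% and 6.60% of promoters held, and neither was in these 3 windows. None of the marked motifs overlap. GC content was 76.0% for IGFBP3, 71.6% for IGFBP4 and 80.8% for IRS1, beside a median of 58.0% over all promoters. The table of promoters matched 8 of the 10 members.

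The libraries had 41786182 counts (CAL27), 37297713 counts (CAL27/5FU) and 43455488 counts (CAL27/OXA). At these depths 1 count equals 0.0257, 0.0255 and 0.0225 CPM. All 10 squamous epithelial markers checked were detected in each line, although their summed FPKM was 6688 in CAL27, 1615 in the CAL27/5FU line and 2380 in the CAL27/OXA line. Past 2-fold lower were 8 in CAL27/5FU and 6 in CAL27/OXA, or 7 and 5 with total-count scaling. Of all compared genes, 6.72% and 9.28% were past 2-fold lower in these lines, and 8.46% and 6.54% higher. CDH1 and DSC3 stayed within 2-fold in both lines, as did TP63 (log2 ratio 0.13) and SFN (0.08) in CAL27/OXA. KRT14, a basal keratin, had 58222, 948 and 8423 counts, and PKP1, a desmosomal plaque protein, had 10588, 507 and 267. The 12 markers of fibroblasts, endothelium and leukocytes summed to 49.5, 41.2 and 80.1 FPKM. Most of that was CD68, with 41.4, 27.0 and 64.1 FPKM, while COL3A1 was at 0 in every library and PTPRC, the leukocyte marker CD45, had 2, 0 and 0 counts. Of the 8 of these markers that were compared, 3 were past 2-fold higher in each resistant line, namely LUM (120, 414 and 877 counts), CDH5 (43, 338 and 163) and COL1A2 (90, 300 and 212), and VWF was past 2-fold lower in CAL27/5FU, with 44, 19 and 29 counts, though not with total-count scaling. The part of these marker levels in the results on the IGF axis was not tested.

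IGFBP3 (ENSG00000146674.14) lies on the minus strand of chromosome 7 from 45912245 to 45921874 in GENCODE 29. It encodes the main IGF carrier of serum. It had 261616 counts in CAL27, 50305 in the CAL27/5FU line and 20373 in the CAL27/OXA line. Scaled to library size these are 6716, 1285 and 459 CPM, so CAL27 was highest and CAL27/OXA lowest. The log2 ratio to CAL27 was -2.39 in CAL27/5FU, with an exact 95% Clopper-Pearson interval of -2.40 to -2.37, and -3.87 in CAL27/OXA (-3.89 to -3.85). These intervals, like all others here, cover counting error only. Between the resistant lines, CAL27/OXA was 2.80-fold lower than CAL27/5FU (2.76 to 2.85).

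By counts, IGFBP3 was number 4 of all genes in CAL27, after EEF1A1, GAPDH and KRT5 and before ENO1, NDRG1, FTH1, ACTB, PKM and ALDOA, number 35 in CAL27/5FU and number 285 in CAL27/OXA. It took 0.626% of all counts in CAL27 (exact binomial 95% interval 0.624% to 0.628%), 0.135% in CAL27/5FU (0.134% to 0.136%) and 0.0469% in CAL27/OXA (0.0462% to 0.0475%). No gene lost more CPM from CAL27 to CAL27/OXA, where IGFBP3 was lower by 6257 CPM, and only KRT5 lost more from CAL27 to CAL27/5FU, where IGFBP3 was lower by 5431 CPM. A loss in CPM can be no larger than the CAL27 level, by which IGFBP3 was chosen, so these places are a description. In relative terms IGFBP3 was the 209th lowest of 13676 compared genes in CAL27/5FU and the 91st lowest in CAL27/OXA. Both ratios divide by that same CAL27 level, so these ranks are a description too.

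IGFBP4, on the plus strand of chromosome 17 from 40443461 to 40457731, encodes a binding protein that is cut by PAPPA and that mostly restrains IGF action. It had 255 counts in CAL27, 2565 in the CAL27/5FU line and 1012 in the CAL27/OXA line, or 6.55, 65.5 and 22.8 CPM. The order of the lines thus differed from that of IGFBP3, with CAL27/5FU highest and CAL27 lowest. The log2 ratio to CAL27 was 3.31 (3.14 to 3.51) in CAL27/5FU and 1.79 in CAL27/OXA (3.03- to 4.01-fold), and CAL27/OXA was 2.88-fold below CAL27/5FU (2.67 to 3.10). IGFBP4 ranked 109 from the top in CAL27/5FU.

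IGFBP7 and IGFBP6 stayed within 2-fold in both resistant lines. IGFBP7, a related protein that binds IGFs weakly and insulin more strongly, had 117, 102 and 112 CPM in CAL27, CAL27/5FU and CAL27/OXA. Its log2 ratio was -0.20 (-0.26 to -0.13) in CAL27/5FU. In CAL27/OXA it was -0.06 (-0.11 to 0.003), and under total-count scaling 0.08. The IGFBP7 locus overlaps POLR2B on the opposite strand, and since the strandedness of the counting is not given in the sources used here, reads from the overlap cannot be told apart. IGFBP6, which prefers IGF2, had 563, 864 and 790 counts. That is 14.5, 22.1 and 17.8 CPM, with log2 ratios of 0.61 (0.46 to 0.77) and 0.30 (0.14 to 0.46).

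The other binding proteins were at the limit of detection. IGFBP2 had 0 counts in every library, and IGFBP5, its neighbour on chromosome 2, had 2, 0 and 2. A count of 0 allows up to 3 counts, or 0.0770 CPM in CAL27, 0.0766 in the CAL27/5FU line and 0.0675 in the CAL27/OXA line, so no fold is given for either gene.

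**Figure D1:**
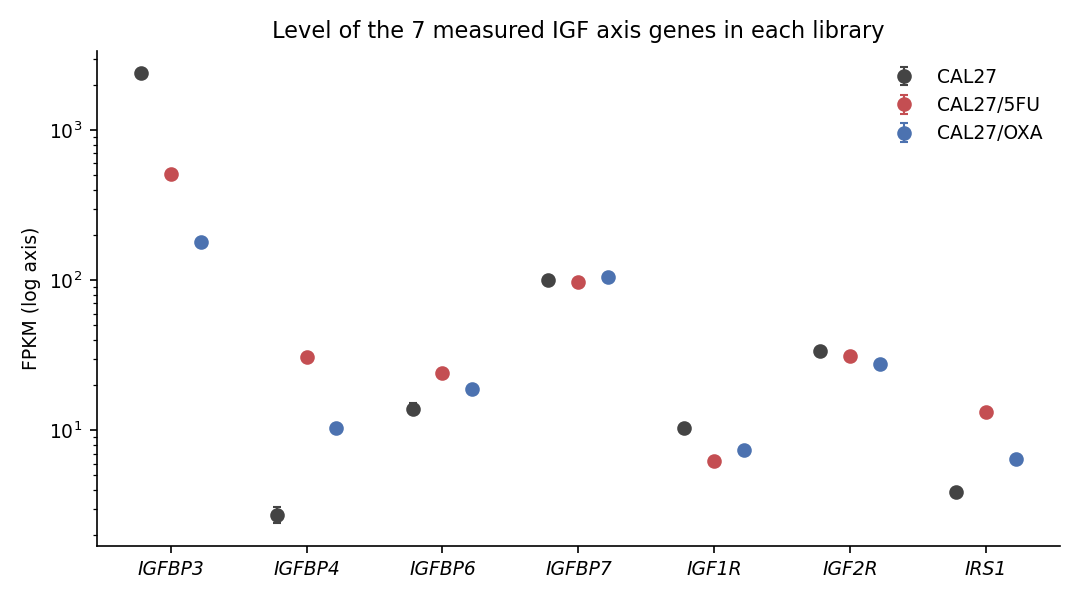
FPKM (depth-scaled counts per unit of gene length) of the 7 compared IGF axis genes on a log axis, with 1 point per library and bars for exact Poisson 95% intervals, most of them smaller than the point. IGFBP3 is the highest gene in each line and falls from 2387 to 514 and 179 FPKM, while IGFBP4 goes from 2.73 to 30.7 and 10.4 FPKM.

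FPKM divides depth-scaled counts by gene length and therefore allows levels of different genes to be compared. The authors' FPKM values are scaled to total counts alone, which makes the fall of IGFBP3 somewhat smaller than on the TMM scale. In CAL27 the order was IGFBP3 (2387 FPKM), IGFBP7 (99.7), IGF2R (33.6), IGFBP6 (13.9), IGF1R (10.3), IRS1 (3.89) and IGFBP4 (2.73), and the counting intervals of neighbours in this order did not overlap. In CAL27/5FU the order was IGFBP3 (514 FPKM), IGFBP7 (98.0), IGF2R (31.2), IGFBP4 (30.7), IGFBP6 (24.0), IRS1 (13.3) and IGF1R (6.27). Here IGF2R and IGFBP4 did not differ beyond their intervals, so IGFBP4 moved from the last place among the 7 genes to the level of IGF2R. In CAL27/OXA it was IGFBP3 (179 FPKM), IGFBP7 (105), IGF2R (27.5), IGFBP6 (18.8), IGFBP4 (10.4), IGF1R (7.43) and IRS1 (6.48), with no overlap between neighbours.

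The pool of binding protein transcripts therefore shrank and changed its makeup. The 6 IGFBP genes summed to 2504 FPKM in CAL27, 667 in the CAL27/5FU line and 313 in the CAL27/OXA line. IGFBP3 made up 95.4% of that sum in CAL27, 77.1% in the CAL27/5FU line and 57.1% in the CAL27/OXA line. The share of IGFBP7 was 3.98%, 14.7% and 33.6%, while its own level was 99.7, 98.0 and 105 FPKM. The share of IGFBP4 was 0.109%, 4.61% and 3.32%, and that of IGFBP6 was 0.557%, 3.59% and 6.01%. Without IGFBP3 the sum was 116 FPKM in CAL27, 153 in the CAL27/5FU line and 134 in the CAL27/OXA line. Per length, CAL27 had 23.9 times as much IGFBP3 as IGFBP7, CAL27/5FU 5.25 times and CAL27/OXA 1.70 times.

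**Figure D2:**
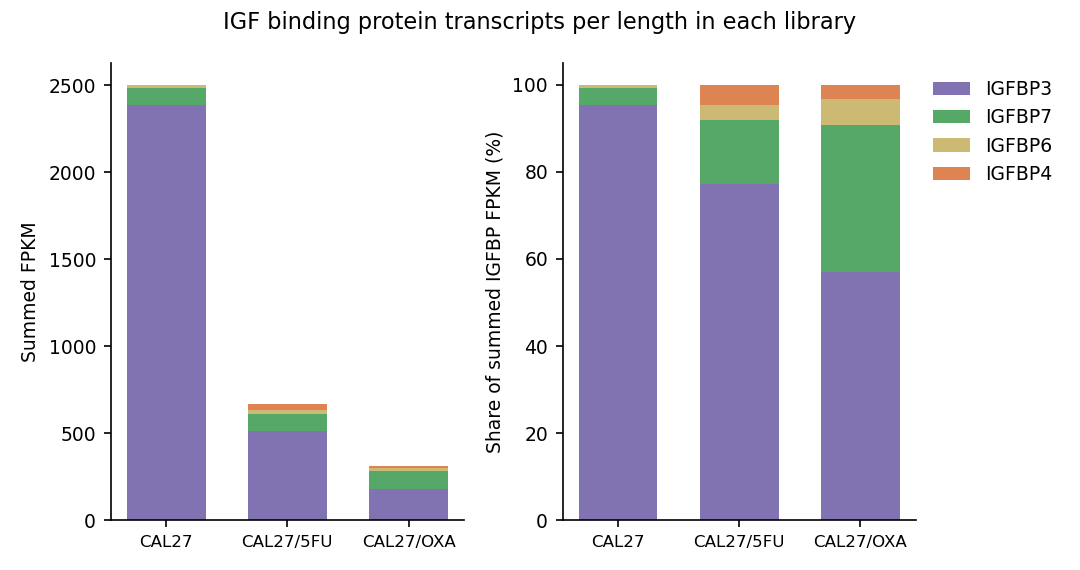
FPKM of the binding protein genes stacked by library, as sums on the left and as percent of the summed IGFBP FPKM on the right, without IGFBP2 and IGFBP5, which were at or near 0. The total drops from 2504 FPKM in CAL27 to 667 in CAL27/5FU and 313 in CAL27/OXA, and the IGFBP3 share from 95.4% to 77.1% and 57.1%.

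The ligand genes had no counts. IGF2, the fetal-type growth factor, had 0 counts in each library, as did INS-IGF2, the read-through gene that overlaps it. IGF1 and INS also had 0 counts in all 3. How reads shared by IGF2, INS and INS-IGF2 were counted is not given in the sources used here, so these zeros set no limit on their transcripts.

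The receptors were present in every line and were lower in both resistant lines without passing 2-fold. IGF1R, on chromosome 15, had 5258 counts in CAL27, 2863 in the CAL27/5FU line and 3950 in the CAL27/OXA line, or 135, 73.1 and 88.9 CPM. CAL27 was the highest and CAL27/5FU the lowest. The log2 ratios were -0.88 (-0.95 to -0.82) in CAL27/5FU, the ratio under 2-fold that came nearest to it, and -0.60 (-0.66 to -0.54) in CAL27/OXA. IGF2R, on chromosome 6, had 19693, 16331 and 16792 counts, or 506, 417 and 378 CPM, with log2 ratios of -0.28 (-0.31 to -0.25) and -0.42 (-0.45 to -0.39). Per length, IGF2R exceeded IGF1R 3.26 times in CAL27, 4.97 times in CAL27/5FU and 3.70 times in CAL27/OXA.

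IRS1, on the minus strand of chromosome 2 from 226731317 to 226799759, encodes the docking protein between the receptor and PI3K. It had 1420 counts in CAL27, 4345 in the CAL27/5FU line and 2461 in the CAL27/OXA line, which is 36.5, 111 and 55.4 CPM. As for IGFBP4, CAL27/5FU was highest and CAL27 lowest. The log2 ratio was 1.61 (1.52 to 1.69) in CAL27/5FU and 0.60 (0.51 to 0.70) in CAL27/OXA. Between the resistant lines it was -1.002, just past 2-fold, with an interval (-1.07 to -0.93) that spans 2-fold. Per length, the level of IRS1 was 0.378 of that of IGF1R in CAL27, 2.13 times it in CAL27/5FU and 0.873 of it in CAL27/OXA.

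**Figure D3:**
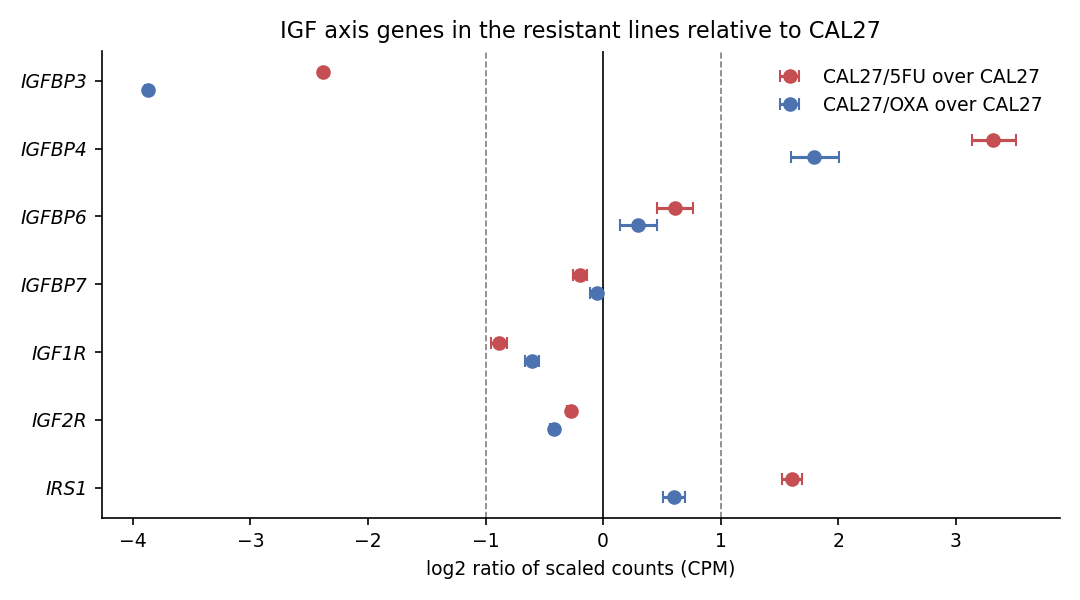
log2 ratios of scaled counts for the 7 compared IGF axis genes in CAL27/5FU and CAL27/OXA over CAL27, with bars for exact 95% Clopper-Pearson intervals and dashed lines at 2-fold. IGFBP3 lies at -2.39 and -3.87, IGFBP4 at 3.31 and 1.79, and IRS1 at 1.61 and 0.60, while the other 4 genes lie inside the lines.

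In CAL27/5FU, 2 of the 7 compared members were past 2-fold higher, beside 8.46% of the 13676 compared genes, and 1 was past 2-fold lower, beside 6.72%. In CAL27/OXA, 1 was higher (6.54% of all compared genes) and 1 lower (9.28%). Between the resistant lines, 0 members were higher in CAL27/OXA (4.18%) and 3 were lower (8.38%, and 12.6% in either direction), namely IGFBP3, IGFBP4 and IRS1. The members were chosen with these values known, so nothing is read from the counts. The median log2 ratio of the 7 members was -0.20 in CAL27/5FU and -0.06 in CAL27/OXA, beside -0.004 and 0.006 over all compared genes. Both comparisons use the same CAL27 library. Scaling by total counts gave 1432 higher and 699 lower genes in CAL27/5FU in place of 1157 and 919, and 1100 higher and 1052 lower in CAL27/OXA in place of 894 and 1269. It left the number of members called in each direction the same.

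None of the 6 compared genes nearest to IGFBP3 on chromosome 7, 3 on each side, was past 2-fold in either resistant line. Of all compared genes, 15.2% were past 2-fold in CAL27/5FU and 15.8% in CAL27/OXA, so little can be read from 6 genes. Their median log2 ratio was 0.23 in CAL27/5FU and -0.17 in CAL27/OXA. ADCY1, an adenylyl cyclase, had 506, 917 and 362 counts, with log2 ratios of 0.85 (1.02 with total counts, past 2-fold) and -0.67, and TNS3, a focal adhesion protein, had 6135, 9228 and 3857 counts, with 0.58 and -0.86. Between the resistant lines, however, ADCY1 (-1.52) and TNS3 (-1.44) were past 2-fold lower in CAL27/OXA, as were IGFBP3 (-1.49) and 8.38% of all compared genes. The other 4 had ratios to CAL27 of -0.44 and -0.19 (NACAD), -0.17 and -0.03 (TBRG4), 0.78 and 0.20 (PKD1L1) and -0.13 and -0.16 (HUS1). The same look at the other members was added after their values were seen. Around IRS1 the 6 neighbours had a median of 1.98 in CAL27/5FU and 0.20 in CAL27/OXA. Among these were DOCK10 (8, 351 and 10 counts), NYAP2 (10, 60 and 59), COL4A3 (23, 88 and 31) and COL4A4, a basement membrane collagen chain (42, 189 and 160 counts). All of these had few counts in CAL27. The better counted CUL3 (3529, 3712 and 4548 counts) and RHBDD1 (941, 1279 and 1007) had log2 ratios of 0.07 and 0.44 in CAL27/5FU. For IGFBP4 the median was -0.19 in CAL27/5FU and -0.69 in CAL27/OXA, whereas IGFBP4 itself rose in both. Around IGFBP6, IGFBP7, IGF1R and IGF2R the medians were -0.27, -0.02, 0.05 and -0.48 in CAL27/5FU. In CAL27/OXA they were -0.21, 0.05, -0.13 and -0.07.

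The 5 genes whose pair of log2 ratios to CAL27 lay nearest to that of IGFBP3, among 11540 genes that averaged 100 counts or more, were RCSD1, KRT6A, FXYD3, UNC5B and SCD. Distances ranged from 0.20 to 0.35 on the log2 scale and rest on 3 libraries. KRT6A, a keratin that is also among the squamous markers, had 36872 counts in CAL27, 6617 in the CAL27/5FU line and 3403 in the CAL27/OXA line. SCD, the stearoyl-CoA desaturase, had 87692, 13420 and 6232. RCSD1 had 793, 138 and 67 counts, with ratios of -2.51 and -3.71.

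The other genes of the pathway were counted in 7 lists, to be read beside the shares of all compared genes (8.46% higher and 6.72% lower in CAL27/5FU, 6.54% and 9.28% in CAL27/OXA). Among IGF system genes outside the members, 6 of 12 were compared, of which 2 were lower in CAL27/5FU and 1 was higher in CAL27/OXA. INSR, the insulin receptor, had 214 counts in CAL27, 3 in the CAL27/5FU line and 181 in the CAL27/OXA line. It was 71.7-fold lower in CAL27/5FU than in CAL27, with a wide counting interval (24.2- to 350.3-fold) that rests on those 3 counts, whereas in CAL27/OXA its log2 ratio was -0.43. CAL27/OXA was 53.2-fold above CAL27/5FU (17.9- to 260.2-fold). IRS2, the sister of IRS1, had 549, 969 and 1348 counts, with 0.81 in CAL27/5FU and 1.10 in CAL27/OXA, so that CAL27/OXA was highest where CAL27/5FU was for IRS1. IGF2BP1, an mRNA-binding protein, had 2477, 1231 and 2722 counts and a log2 ratio of -1.01 in CAL27/5FU, which was under 2-fold with total-count scaling. The medians of the list were -0.07 in CAL27/5FU and -0.03 in CAL27/OXA, both of which turned to 0.10 with total counts. IGFBP1, which adjoins IGFBP3, had only 16, 9 and 4 counts and was not compared.

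Of the IGFBP proteases and their inhibitors, 7 of 8 were compared; HTRA1 stands both here and among the relatives below. PAPPA, the metalloprotease that cuts IGFBP4, had 0 counts in CAL27, 47 in the CAL27/5FU line and 2 in the CAL27/OXA line. In CAL27/5FU it was 15.6-fold above the floor of 3 counts in CAL27, at a very low level of 0.115 FPKM. The counting interval of its ratio starts lower, at 12.2-fold. STC1, an inhibitor of PAPPA, had 884, 1276 and 321 counts, with 0.52 in CAL27/5FU and -1.64 in CAL27/OXA. CTSD, a lysosomal protease, had 48716, 25121 and 15798 counts, with -0.96 and -1.81. The list thus held 1 higher and 0 lower genes in CAL27/5FU and 0 higher and 2 lower genes in CAL27/OXA, with medians of 0.09 and -0.55.

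Among 12 relatives that carry an IGFBP domain, 8 were compared, with 2 higher and 1 lower in CAL27/5FU and 2 higher and 2 lower in CAL27/OXA. CYR61 and CTGF, matricellular proteins of the CCN family, rose in both lines. CYR61 had 1853, 9579 and 11753 counts, with log2 ratios of 2.36 and 2.47, and CTGF had 226, 907 and 1004, with 1.99 and 1.95. WISP1 went the other way, with 144, 2 and 0 counts, so that it was 72.3-fold lower in CAL27/5FU (19.7- to 603-fold). In CAL27/OXA it was 54.7-fold lower against the floor of 3 counts, and the counting interval of its ratio starts lower, at 43.9-fold. NOV had 315, 169 and 175 counts, with a log2 ratio of -1.03 in CAL27/OXA that was under 2-fold with total counts. The medians were 0.33 and 0.23.

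Of 7 proteins known to bind IGFBP3, 6 were compared. LRP1, an endocytic receptor, had 10360, 4104 and 3293 counts, with log2 ratios of -1.34 and -1.84. RXRA, a nuclear receptor, had 11089, 5383 and 6744 counts, with -1.05 and -0.91, and was under 2-fold in both lines with total counts. TMEM219, a cell death receptor for IGFBP3, had 1856, 2660 and 2883 counts, with 0.51 and 0.45, both within 2-fold. LRP1 and RXRA were the lower genes of this list in CAL27/5FU, LRP1 alone in CAL27/OXA, and none was higher in either line; the medians were -0.21 and -0.41. FN1, with 4921, 6415 and 10802 counts, had 0.94 in CAL27/OXA, past 2-fold with total counts and FPKM.

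Of the 19 PI3K-AKT-mTOR genes, all compared, 0 were past 2-fold in CAL27/5FU and 1 in CAL27/OXA, FOXO4, with 405, 221 and 219 counts and a log2 ratio of -1.07 that was under 2-fold with total-count scaling. Their median was -0.12 in CAL27/5FU, which was 0.05 with total counts, and -0.33 in CAL27/OXA. Of the 14 RAS-MAPK genes, 0 were past 2-fold in either line, with medians of -0.10 and -0.11, or 0.08 and 0.03 with total counts. Of the 15 compared negative regulators, 4 were higher in CAL27/5FU (SOCS2, DOK1, SOCS3 and NEDD4), 3 were higher in CAL27/OXA (SOCS2, NEDD4 and SOCS3; 4 with total counts) and 0 were lower. SOCS2, a suppressor of cytokine and growth hormone signalling, had 113, 550 and 433 counts, with log2 ratios of 2.26 and 1.73. DOK1, an adaptor that dampens receptor kinase signals, had 62, 207 and 137 counts, with 1.70 and 0.93, and NEDD4, a ubiquitin ligase, had 2405, 4938 and 6365, with 1.03 and 1.21. The median of this list was 0.003 in CAL27/5FU and 0.05 in CAL27/OXA.

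**Figure D4:**
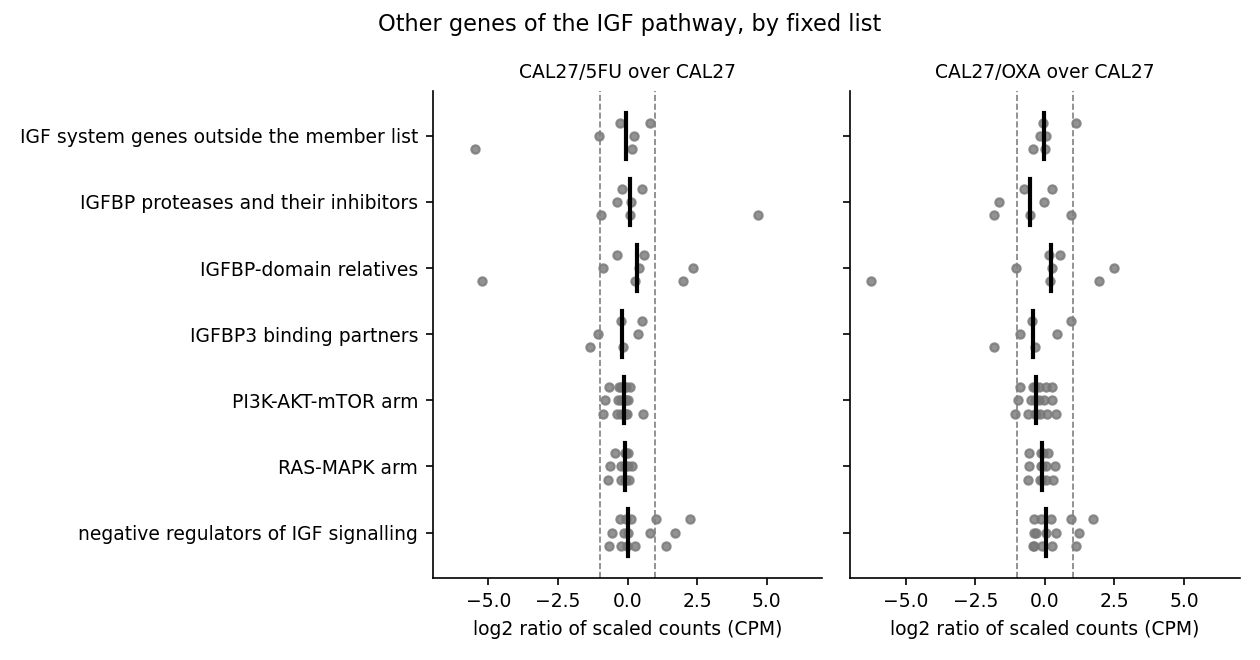
log2 ratios of scaled counts for the compared genes of 7 pathway lists, with CAL27/5FU over CAL27 on the left and CAL27/OXA over CAL27 on the right. Grey points are genes, black bars list medians and dashed lines 2-fold; the PI3K-AKT-mTOR and RAS-MAPK genes lie within 2-fold except FOXO4 in CAL27/OXA, and the farthest low points are INSR (-5.46, left) and WISP1 (-5.23 and -6.26), whose fitted values depend on the prior count.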

How the data were processed

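RNA-seq of 3 lines was analysed. The libraries were sequenced by Novogene, and the submitters' processing notes name CASAVA 1.8, HISAT2 2.0.5 and the build GRCh38. The counting tool, the annotation and the strandedness are not given in the sources used here. The authors deposited raw read counts per gene symbol (19220 genes) and FPKM values (19225 genes). For 14367 genes with counts in all libraries, 100% gave 1 gene length within 0.1%, so FPKM is scaled by total counts. Another 3 columns, named like a second library of each line, match no labelled sample and were left out throughout.

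TMM factors from edgeR 4.0.16 (R 4.3.3) scaled the counts of the 3 libraries, with a prior count of 2 for log2 ratios. Genes averaging 10 counts or more were compared (13676) and called past 2-fold. With 1 library per line, no test was run, although the study also used DESeq2. Ratios have exact 95% Clopper-Pearson intervals. Where 1 library had 0 counts, the fold is taken against 3 counts, and with 1 to 3 counts it is the ratio with its interval. The ratio script was tested on simulated counts. Members, lists and tests were chosen with earlier results of these data known. Named are all members, IGF1, IGFBP1, INSR, IRS2, the genes of each list with the 2 largest rises and falls past 2-fold in each comparison with CAL27, the 3 neighbours of IGFBP3 on each side, the 10 most counted genes of CAL27 and the 5 genes most like it; other genes were named after their values were seen. Genes were placed with GENCODE 29, and promoters came from RefSeq. Alternatives were DESeq2 1.42.0 size factors, total counts, upper quartile, other filters and prior counts, FPKM with pseudocounts of 1 and 0.1, the whole interval past 2-fold, and 4-fold.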

Additional observations from a re-analysis of the deposited data

Results flagged for a closer look

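For the genes below, the log2 ratios of CAL27/5FU and CAL27/OXA to CAL27 had opposite signs with both counting intervals off 0. They are not a full list of the genes that met this rule. Among pathway genes, RICTOR did so at 0.10 (0.03 to 0.18) and -0.36 (-0.44 to -0.29). SHC1 did so at -0.05 (-0.08 to -0.02) and 0.36 (0.33 to 0.39). The difference was not tested across replicates, since each line has 1 labelled library, and both ratios share the CAL27 library. STC1 was at 0.52 (0.40 to 0.65) in CAL27/5FU and -1.64 (-1.84 to -1.47) in CAL27/OXA. ADCY1 was at 0.85 (0.69 to 1.01) and -0.67 (-0.87 to -0.48). TNS3 was at 0.58 (0.54 to 0.63) and -0.86 (-0.92 to -0.80). FTH1, the ferritin heavy chain, was at 0.46 (0.45 to 0.46) and -1.08 (-1.09 to -1.07). ACTB was near 0 in both, at 0.024 (0.015 to 0.033) and -0.11 (-0.12 to -0.10), and with total-count scaling both of its ratios were positive (0.19 and 0.02). In the other direction, HTRA1 was at -0.40 (-0.59 to -0.21) and 0.25 (0.088 to 0.42), and CD68 at -0.79 (-0.87 to -0.71) and 0.50 (0.43 to 0.56). TP63 was at -1.28 (-1.32 to -1.25) and 0.13 (0.10 to 0.15), and SFN at -1.08 (-1.11 to -1.06) and 0.08 (0.06 to 0.10).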

How the results depend on the processing

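The 21 log2 ratios of the members (7 genes in 3 comparisons) kept their direction under the alternatives of scaling, prior count and unit, with 1 exception. IGFBP7 in CAL27/OXA against CAL27 was positive under 4 of the 10 alternatives (up to 0.08). Those 4 were total counts and the FPKM settings, which all share total-count scaling. A change of filter alone cannot move the ratio of a gene, so such alternatives do not check direction. IGFBP3 ranged from -2.39 to -2.21 in CAL27/5FU and from -3.87 to -3.73 in CAL27/OXA, and IGFBP4 from 3.09 to 3.48 and from 1.61 to 1.92. The ratio of IRS1 between the resistant lines was -0.94 with an FPKM pseudocount of 1, under 2-fold. Scaling by total counts put the median of all genes at 0.17 in CAL27/5FU and 0.14 in CAL27/OXA.

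At 4-fold, 1 member was past the threshold in CAL27/OXA against CAL27 in place of 2, 0 in CAL27/OXA against CAL27/5FU in place of 3, and 2 in CAL27/5FU against CAL27 in place of 3. Without the filter on low counts, IGFBP5 was counted as lower in CAL27/5FU from 2 against 0 counts, which is under the floor. The numbers of all genes past 2-fold were 2076, 2163 and 1717 in the 3 comparisons (CAL27/5FU and CAL27/OXA against CAL27, then CAL27/OXA against CAL27/5FU). They became 3454, 3273 and 2842 without the filter, 814, 849 and 602 with FPKM and a pseudocount of 1, 774, 797 and 568 when a mean FPKM of at least 1 was also required, 1342, 1390 and 1028 with the whole interval past 2-fold, and 690, 708 and 519 at 4-fold. No paired analysis was possible because each line has 1 labelled library, and leaving out a replicate was not possible for the same reason. Depth limits IGFBP2 and IGFBP5, which had at most 2 counts in any library.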
